A study of Mus musculus with 12 samples.

Results

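A set of 8 genes that mast cells and basophils are known for was followed across LSK cells of 6 groups of mice. LSK cells are the lineage-negative, Sca-1-positive, c-Kit-positive fraction of bone marrow that holds hematopoietic stem cells and early progenitors. They were Cma1, Tpsb2, Cpa3, Gzmb, Fcer1a, Ms4a2, Hdc and Il1rl1, out of 55471 genes in the count table. They were selected on their measured rise in knockouts, so the knockout against wild-type values of these genes are given as a description and carry no test. All 8 passed the filter on low counts that left 17063 genes for testing, and Cma1 and Tpsb2 passed through their high groups, since their wild-type counts were near 0.

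RNA was sequenced from 12 libraries, 2 in each of 6 groups, taken from primary transplanted mice 6 weeks after tamoxifen. WT was the wild type, and the gene targeted was Hoxa9 in HOXA9_KO, beta-catenin (Ctnnb1) in Bcat_KO, and both in dKO. PRMT1_KO was targeted at Prmt1 and was set against its own wild type, WT_PRMT1. The titles call these groups KO while the genotype field calls them knockdowns. All groups, both wild types included, were studied after tamoxifen and after transplantation. The Cre driver, the alleles and the host's remaining cells are not stated in the labels. Nor do these say that a group's 2 libraries are from separate mice, so every p-value measures only the spread between these libraries. Libraries are named by the tag in the count table (S1 and so on).

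Mast cells and basophils arise from hematopoietic progenitors and store ready-made mediators in granules. IgE bound to the high-affinity receptor FcεRI arms both cell types, and antigen that crosslinks it releases histamine and granule proteases. Fcer1a encodes the IgE-binding alpha chain of that receptor and Ms4a2 its signal-amplifying beta chain. Cma1 encodes a mast cell chymase, Tpsb2 a tryptase, Cpa3 the granule carboxypeptidase A3, and Gzmb granzyme B, which cytotoxic lymphocytes also store. Hdc makes histamine from histidine, and Il1rl1 encodes ST2, the receptor for interleukin-33. GATA2 is a transcription factor that both lineages need.

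The promoters of 4 genes are shown because they pair genes that share a role or a locus and yet differed in pattern between the knockouts: Fcer1a with Ms4a2, the 2 chains of one receptor, and Cma1 with Gzmb, the 2 ends of one protease locus. Each runs 5′ to 3′ on the strand of its gene, from 250 bases before to 50 bases after the RefSeq start (build GRCm38.p6). Capitals mark matches, on either strand, to the GATA letters AGATAA or AGATAG or TGATAA or TGATAG. The windows are chr1:173227180-173227479 for Fcer1a, chr19:11623670-11623969 for Ms4a2, chr14:55944626-55944925 for Cma1 and chr14:56262285-56262584 for Gzmb, all on the minus strand.
Fcer1a: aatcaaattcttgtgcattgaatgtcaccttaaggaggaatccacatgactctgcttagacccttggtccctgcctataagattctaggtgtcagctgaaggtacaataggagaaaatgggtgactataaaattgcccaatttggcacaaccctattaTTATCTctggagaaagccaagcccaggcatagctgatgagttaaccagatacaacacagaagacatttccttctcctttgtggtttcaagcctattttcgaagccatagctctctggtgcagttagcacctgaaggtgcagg
Ms4a2: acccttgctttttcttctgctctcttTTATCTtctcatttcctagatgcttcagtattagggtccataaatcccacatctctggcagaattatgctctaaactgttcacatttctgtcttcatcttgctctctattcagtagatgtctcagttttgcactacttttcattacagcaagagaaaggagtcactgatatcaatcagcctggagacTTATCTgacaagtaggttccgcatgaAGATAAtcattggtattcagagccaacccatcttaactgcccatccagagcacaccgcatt
Cma1: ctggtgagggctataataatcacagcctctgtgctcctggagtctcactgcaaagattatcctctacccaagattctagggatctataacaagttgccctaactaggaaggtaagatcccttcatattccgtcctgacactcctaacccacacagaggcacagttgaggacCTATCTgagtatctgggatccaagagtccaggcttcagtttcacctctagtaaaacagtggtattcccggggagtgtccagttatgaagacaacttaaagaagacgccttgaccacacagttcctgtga
Gzmb: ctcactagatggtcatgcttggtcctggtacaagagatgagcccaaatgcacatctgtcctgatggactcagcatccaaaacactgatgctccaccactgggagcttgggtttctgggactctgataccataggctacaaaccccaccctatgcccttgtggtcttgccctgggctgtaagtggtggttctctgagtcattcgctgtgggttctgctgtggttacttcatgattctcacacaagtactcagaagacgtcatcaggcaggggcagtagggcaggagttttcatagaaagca

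Of the 8 genes, 7 matched a RefSeq promoter, Tpsb2 being the other one, and Il1rl1 had 2 starts. The GATA letters were present in 6 of those 7 genes, against 29.8% of 32851 mouse promoters of the same length. Ms4a2 held 3 matches, at 224, 37 and 11 bases before the start. Fcer1a held 1 at 92 bases, Cma1 1 at 79 bases, Cpa3 1 at 46 bases and Hdc 1 at 221 bases before it. Il1rl1 held 5 in one of its windows, at 217, 141, 110, 80 and 54 bases, and 1 at 103 bases in the other. Gzmb had none in its window, which runs from 56262285 to 56262584. That window lies wholly upstream of the counted gene, whose minus-strand start is at 56262260. Counted by window, 7 of 8 held the letters, Il1rl1 having 2 chances. The E-box letters CACGTG or CATGTG were in 1 gene (Fcer1a; 20.4% of all promoters), the TCF letters ATCAAAG in 1 (Hdc; 3.7%), and the HOX-PBX letters TGATTTAT or TGATTGAT in 1 (Ms4a2; 1.7%). All motifs were searched on both strands. These are matches of letters and not measured binding.

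Library totals ran from 17569709 to 40553891 counts. A gene is called where its p-value, adjusted over all genes tested, is under 0.05, and values after ± are standard errors (SE) of a log2 difference. Hoxa9 was lower in HOXA9_KO (log2 -2.53 ± 0.17, SE) and in dKO (log2 -2.71 ± 0.17; edgeR quasi-likelihood test, adjusted p = 4.99e-08 and 1.25e-08). Prmt1 was lower in PRMT1_KO (log2 -1.33 ± 0.07, adjusted p = 1e-09), and Ctnnb1 in Bcat_KO (log2 -0.28 ± 0.07, adjusted p = 0.017) and dKO (log2 -0.51 ± 0.07, adjusted p = 0.000109). Most Ctnnb1 RNA remained, at 276 and 267 CPM in Bcat_KO and 227 and 235 in dKO against 315 and 342 in WT. Prmt1 was at 118 and 112 CPM in PRMT1_KO against 283 and 292 in WT_PRMT1. The words loss and lost below name the targeted gene and do not mean that no RNA remained. The LSK marker sum (Kit, Ly6a, Cd34 and 7 others) lay between 1437 and 2241 CPM (counts scaled to a common library size with TMM factors) in all 12 libraries. Its members did not stay level: of 10 genes tested, HOXA9_KO had 4 called higher and 2 lower, Bcat_KO 2 and 2, dKO 3 and 4, and PRMT1_KO 5 and 1. Over all genes tested, 4.44% were called higher and 2.30% lower in HOXA9_KO, and 7.48% and 9.76% in Bcat_KO. The shares were 9.15% and 8.52% in dKO and 16.6% and 16.0% in PRMT1_KO. In dKO, Cd34 was at 260 and 191 CPM against 765 and 715 in WT (log2 -1.71 ± 0.14, adjusted p = 1.03e-05), Flt3 at 133 and 82.9 against 537 and 421 (log2 -2.15 ± 0.22, adjusted p = 0.000429), and Slamf1 at 43.7 and 67.6 against 8.32 and 7.87 (log2 2.78 ± 0.25, adjusted p = 2.51e-06). The part of these shifts in the values below was not tested. The sex-linked transcripts split the libraries along the comparisons: Xist was at 163 to 202 CPM in both wild-type groups, 11.2 and 21.9 in Bcat_KO and at most 0.758 in the other knockouts, while Ddx3y was at 60.6 to 93.5 CPM in all knockouts and at most 2.87 in the wild types. The knocked-out gene and this difference cannot be told apart in any knockout against wild-type comparison. In bulk RNA, more cells of a type and more RNA per cell also cannot be told apart.

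Cma1 (ENSMUSG00000022225, chromosome 14, 55941451 to 55944675, GRCm38) was nearly silent in both wild types. It reached 7.23 to 12.1 CPM in dKO, PRMT1_KO and Bcat_KO S4. The level was 0.105 and 0.0925 CPM in WT and 0 in both WT_PRMT1 libraries. HOXA9_KO had 0.328 and 0.499, Bcat_KO 1.59 and 10.7, dKO 9.45 and 8.12, and PRMT1_KO 7.23 and 12.1. No knockout library overlapped its wild type. By counts, the level was 69.7-fold that of WT in Bcat_KO (exact 95% interval 27.1 to 257, counting error only) and 89.4-fold in dKO (34.7 to 329). With its libraries pooled, PRMT1_KO was 134-fold a floor of 3 counts over the WT_PRMT1 group. This fold leaves out the spread between libraries.

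Tpsb2 (ENSMUSG00000033825, chromosome 17, 25366305 to 25369098), the tryptase, was at 0 in both WT libraries and at 0.226 and 0.36 CPM in WT_PRMT1. HOXA9_KO S4 had 2.84 and S5 0.25, so this group's mean rested on 1 library. Bcat_KO had 2.41 and 11.5, dKO 13.7 and 9.0, and PRMT1_KO 12.3 and 35.4. With each group's libraries pooled, the level was 18.6-fold a floor of 3 counts in WT for HOXA9_KO, 104-fold for Bcat_KO and 154-fold for dKO. These folds leave out the spread between libraries and are not lower bounds for each library. In PRMT1_KO it was 85.4-fold that of WT_PRMT1 by counts (48.7 to 166).

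Cpa3 (ENSMUSG00000001865, chromosome 3, 20215620 to 20242181) was the protease already present in wild-type LSK cells. WT had 18.4 and 17.2 CPM, HOXA9_KO 18.8 and 21.3, Bcat_KO 13.1 and 20.0, and dKO 35.5 and 18.7. In the other experiment it went from 6.06 and 12 in WT_PRMT1 to 46.5 and 51.5 in PRMT1_KO. The log2 difference was 2.43 ± 0.39 (SE) in PRMT1_KO but at most 0.61 ± 0.37 in the other knockouts. The dKO value was 0.06 without dKO S6. Per length of transcript, Cpa3 was the highest of the 8 genes in PRMT1_KO (32.3 RPKM, counts per kilobase of exon on the CPM scale, mean of 2) and in WT (11.7 RPKM).

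Gzmb (ENSMUSG00000015437, chromosome 14, 56258838 to 56262260) stood high in PRMT1_KO, at 28.1 and 24.5 CPM against 0.453 and 0.0899 in WT_PRMT1. This was 104-fold by counts (56.2 to 217). WT had 0.732 and 1.48 CPM, HOXA9_KO 2.62 and 1.66, and Bcat_KO 0.762 and 1.37, the last overlapping WT. In dKO, S6 had 5.88 and S7 had 1.37, which lies inside the WT range. The log2 difference of dKO from WT, 1.70 ± 0.72, was 0.28 without dKO S6. The summed T and NK cell markers (15 genes, among them Cd3e, Ncr1 and Prf1) were at 121 to 124 CPM in PRMT1_KO and 112 to 119 in WT_PRMT1. Nkg7 alone gave 89.4 and 91.7 CPM of the PRMT1_KO sums and 46.1 and 48.5 of the WT_PRMT1 sums, so the sums do not describe the other genes. Within that list 14 genes were tested, beside shares of 16.6% called higher and 16.0% lower over all genes. Nkg7 was called higher in PRMT1_KO (log2 0.94 ± 0.28, adjusted p = 0.0405), and Ncr1 (log2 -5.22 ± 1.45, adjusted p = 0.0158), Cd8a (log2 -2.45 ± 0.69, adjusted p = 0.0102) and Cd3g (log2 -2.99 ± 1.01, adjusted p = 0.0426) lower. The part of T and NK cells in the Gzmb values was not tested.

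Fcer1a (ENSMUSG00000005339, chromosome 1, 173221284 to 173227214) was higher in every knockout library than in its wild type. WT had 1.26 and 0.925 CPM, HOXA9_KO 6.23 and 14.4, Bcat_KO 3.24 and 2.5, and dKO 19.9 and 8.5. WT_PRMT1 had 0.113 and 0 CPM against 11.8 and 13.0 in PRMT1_KO. The log2 difference from WT was 3.24 ± 0.55 in HOXA9_KO, 1.39 ± 0.54 in Bcat_KO and 3.70 ± 0.55 in dKO. The first was 2.51 without HOXA9_KO S5 and the last 2.95 without dKO S6. PRMT1_KO was 249-fold above WT_PRMT1 by counts, with a wide interval (68.6 to 2064), because WT_PRMT1 rested on 1 library with counts.

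Ms4a2 (ENSMUSG00000024680, chromosome 19, 11615523 to 11623719), the partner chain, did not share that pattern outside PRMT1_KO. WT had 4.92 and 1.85 CPM, while both libraries of HOXA9_KO (1.2 and 1.25) and of Bcat_KO (0.826 and 0.99) lay below them. The dKO libraries split, with 7.67 in S6 and 1.06 in S7, on both sides of WT. WT_PRMT1 had 0.792 and 1.35 CPM against 24.0 and 17.4 in PRMT1_KO, a log2 difference of 4.25 ± 0.90. The log2 difference was -1.46 ± 0.85 in HOXA9_KO, -1.88 ± 0.84 in Bcat_KO and 0.37 ± 0.79 in dKO. The first of these was -0.60 without WT S1 and the last -1.67 without dKO S6. Fcer1g, the shared gamma chain of the receptor, was called in no comparison and was at 38.1 and 40.1 CPM in PRMT1_KO against 69.8 and 64.2 in WT_PRMT1 (log2 -0.78 ± 0.44, adjusted p = 0.243).

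Hdc (ENSMUSG00000027360, chromosome 2, 126593667 to 126619299), the histamine-forming enzyme, was at 57.3 and 66.9 CPM in PRMT1_KO against 4.41 and 4.54 in WT_PRMT1. Elsewhere every knockout overlapped WT, which had 8.89 and 4.07: HOXA9_KO had 2.08 and 4.16, Bcat_KO 4.16 and 7.54, and dKO 11.9 and 5.01. Il1rl1 (ENSMUSG00000026069, chromosome 1, 40429570 to 40465415), the interleukin-33 receptor, overlapped WT in the same 3 knockouts and stood high in PRMT1_KO, at 15.6 and 11.3 CPM in PRMT1_KO against 1.58 and 2.25 in WT_PRMT1. WT had 1.94 and 0.509, HOXA9_KO 1.04 and 1.91, Bcat_KO 1.33 and 1.23, and dKO 4.1 and 1.21. The log2 difference in PRMT1_KO was 3.79 ± 0.61 for Hdc and 2.80 ± 0.62 for Il1rl1.

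**Figure D1:**
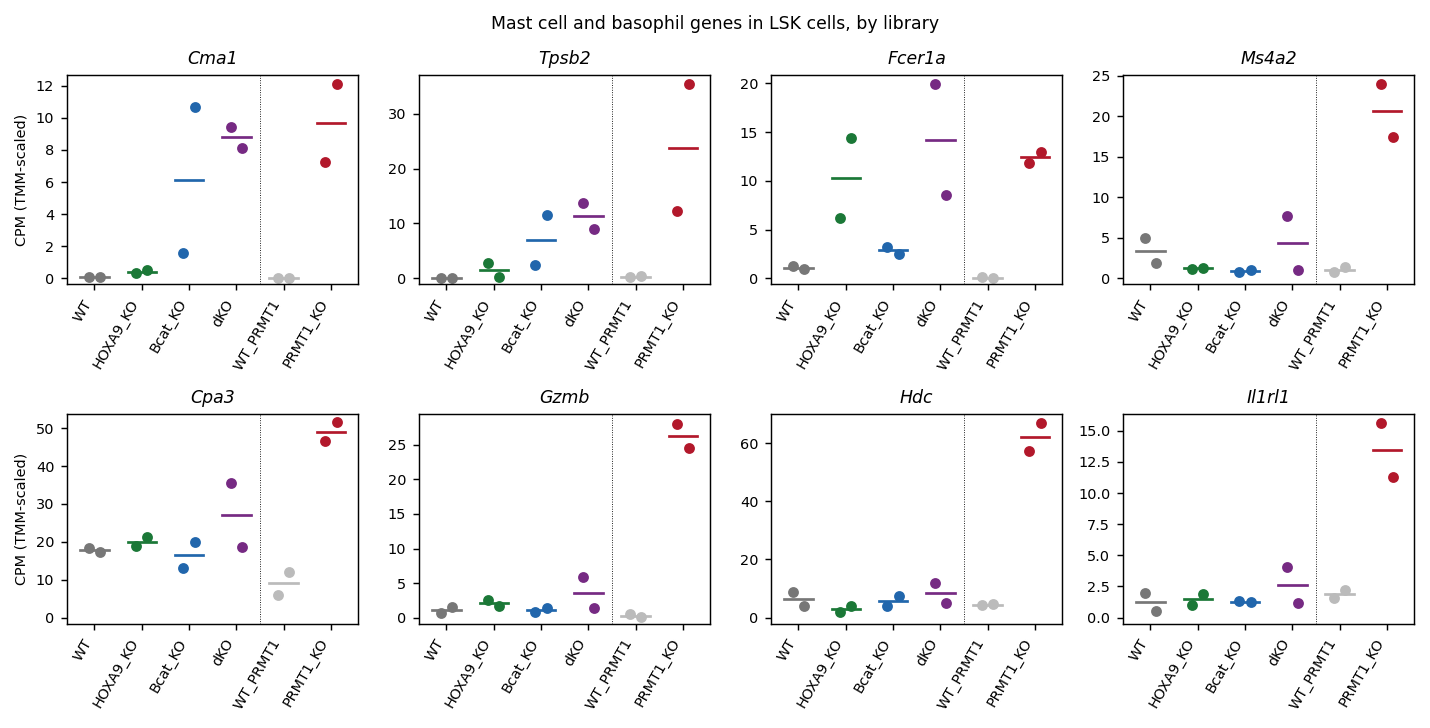
TMM-scaled CPM (linear axes that differ between panels) of the 8 genes in each library; dots are libraries, bars are means of 2, and the dotted line parts the 2 experiments. PRMT1_KO lies above WT_PRMT1 for all 8 genes, while Cma1, Tpsb2 and Fcer1a also lie above WT in the other 3 knockouts.

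Counted over the genes, PRMT1_KO had both libraries above both WT_PRMT1 libraries for 8 of 8, where 33.0% of all genes tested did. The median log2 difference of the 8 was 5.28 and that of all genes -0.03. HOXA9_KO had 5 of 8 above WT (25.8% of all genes) and 1 below (25.1%), with a median of 0.62. Bcat_KO had 3 of 8 above (26.8%) and 1 below (32.6%), with a median of 0.02, and dKO had 4 of 8 above (29.6%) and none below (29.1%), with a median of 1.42. The choice of the genes fixed this direction, so nothing is read from these counts. Cma1, Tpsb2 and Fcer1a were above the wild type in all 4 knockouts, whereas Ms4a2 was above in 1 and below in 2.

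dKO S6 was the higher of its pair for 8 of 8 genes, by 7.21-fold for Ms4a2, 4.31-fold for Gzmb and 3.38-fold for Il1rl1. The summed level of the 8 genes was 108 CPM in dKO S6 and 53.0 in S7. Markers of other cells were uneven in the same pair: the 9 eosinophil markers summed to 191 and 63.4 CPM, the 11 neutrophil markers to 3026 and 1835, the 15 T and NK markers to 142 and 79.9, and the 8 B cell markers to 145 and 66.4. Prg2 alone gave 167 and 57.4 CPM of the eosinophil sums, and Nkg7 82.9 and 40.9 of the T and NK sums. The type 2 innate lymphoid list (97.9 and 64.3), the dendritic cell list (284 and 197) and the megakaryocyte list (1535 and 1369) were also higher in S6. The erythroid list went the other way, at 134 CPM in S6 and 408 in S7, as did the LSK list (1437 and 1526). The part of these other cells in the dKO values was not tested. Without dKO S6 the log2 difference from WT was 0 for Il1rl1 and -0.38 for Hdc, while that of Cma1 was 6.28. Bcat_KO was uneven for fewer genes, S4 exceeding S3 by 6.77-fold for Cma1 and 4.76-fold for Tpsb2. The Cma1 log2 difference from WT, 5.90, was 3.92 without S4. In WT, S1 was the higher for 7 of 8 genes, by 3.8-fold for Il1rl1 and 2.66-fold for Ms4a2. WT S1 and S2 had neutrophil sums of 2260 and 938 CPM, erythroid sums of 1246 and 309, and B cell sums of 706 and 878. HOXA9_KO S4 and S5 had neutrophil sums of 353 and 1597. The Il1rl1 log2 difference from WT was -0.36 in HOXA9_KO and -0.60 in Bcat_KO without WT S2. Without WT S1 it was 1.53 and 1.29.

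In PRMT1_KO other lineages' markers stood apart too, where 16.6% of all genes tested were called higher and 16.0% lower. The neutrophil list summed to 5445 and 5152 CPM against 1349 and 1448 in WT_PRMT1, with 2 of 11 genes called higher (Prtn3 and Mpo, both early granule genes). The megakaryocyte list summed to 1079 and 1022 against 177 and 176, with 9 of 10 called higher, and the B cell list to 82.4 and 83.4 against 952 and 912, with 8 of 8 called lower. Eosinophil markers summed to 76.3 and 55.4 against 41.4 and 27.5, with 1 of 7 tested called higher. Prg2 alone gave 60.2 and 39.7 CPM of the PRMT1_KO sums and 30.1 and 19.5 of the WT_PRMT1 sums. It was not called (edgeR quasi-likelihood test, adjusted p = 0.279). The gene called was Siglecf, at 7.72 and 9.1 CPM against 2.49 and 2.97. The type 2 innate lymphoid list, cells that also carry ST2, summed to 67.8 and 69.6 against 67.1 and 74.8, with Rora (log2 1.62 ± 0.24, adjusted p = 5.03e-05) and Gata3 (log2 0.81 ± 0.21, adjusted p = 0.00623) called higher, Areg (log2 -2.29 ± 0.53, adjusted p = 0.00265) and Il17rb (log2 -1.41 ± 0.44, adjusted p = 0.02) lower, and Il5 at 0 in all 12 libraries. The erythroid list summed to 64.8 and 61.8 CPM against 664 and 595, with 3 of 10 called higher and 6 lower, and the dendritic cell list to 763 and 719 against 1075 and 1092, with 5 of 8 called lower. The part of these cells in the 8 genes' values was not tested.

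The comparisons between knockouts and between wild types were tested for 6 of the 8 genes, 24 tests in 4 comparisons, with p-values adjusted over all 17063 genes. Cma1 and Tpsb2 passed the filter only through their high groups, so their differences are given as a description with no test. All these comparisons use libraries that the choice of genes had also seen. HOXA9_KO, Bcat_KO and dKO had Ddx3y levels of 60.6 to 69.8 CPM, but Xist was at 11.2 and 21.9 CPM in Bcat_KO and at most 0.619 in HOXA9_KO and dKO. Each comparison with Bcat_KO crosses that difference, which cannot be told apart from the knocked-out gene.

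Beta-catenin loss on top of Hoxa9 loss was read from dKO against HOXA9_KO, in which none of the 6 tested genes was called (edgeR quasi-likelihood test; 1 of 6 had an unadjusted p under 0.05, and DESeq2 also called 0), against 0.416% of all genes called higher. On simulated counts with the same spread for every gene, the fit called 14.5% of genes changed by log2 1 in this comparison. It called 95% of those changed by log2 2. These rates need not hold for the 6 genes, whose spread differs, so the absence of calls is not read as no difference. Fcer1a differed by 0.46 ± 0.47 (log2 ± SE, adjusted p = 0.801). Cma1 was at 9.45 and 8.12 CPM in dKO against 0.328 and 0.499 in HOXA9_KO, a fitted log2 difference of 4.37 ± 0.87. For Tpsb2 it was 2.92 ± 1.30, with 13.7 and 9.0 CPM against 2.84 and 0.25. Both dKO libraries thus lay above both HOXA9_KO libraries for these 2 proteases. All 8 differences were above 0, and 5 of them (Fcer1a, Ms4a2, Cpa3, Gzmb and Il1rl1) changed sign without dKO S6.

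Hoxa9 loss on top of beta-catenin loss was read from dKO against Bcat_KO. Fcer1a was 2.31 ± 0.50 higher in dKO than in Bcat_KO (edgeR quasi-likelihood test, adjusted p = 0.00501). This was 1 of 6 tested genes called higher, near the 16.2% of all genes. The dKO and Bcat_KO levels are also part of the rise for which Fcer1a was picked. Nothing is therefore read from the count or from the call. The call was lost without Bcat_KO S4 (adjusted p = 0.0847). The fitted difference of Cma1 was 0.50 ± 0.70, and 2.49 without Bcat_KO S4, the library with most of that group's Cma1. Ms4a2 differed by 2.25 ± 0.84 (adjusted p = 0.0824) and Gzmb by 1.75 ± 0.70 (adjusted p = 0.0947), and DESeq2 called both.

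Between the single knockouts, Fcer1a was 1.85 ± 0.49 higher in HOXA9_KO than in Bcat_KO (log2 ± SE, adjusted p = 0.0241). In levels it was at 6.23 and 14.4 CPM against 3.24 and 2.5, with no overlap. This was 1 of 6 tested genes called higher (10.8% of all genes), and none was called lower (6.52%). With 6 genes, nothing is read from these counts. Both levels are also part of the rise for which Fcer1a was picked, so nothing is read from the call. The Fcer1a call was lost without HOXA9_KO S5 (adjusted p = 0.158), Bcat_KO S3 (0.112) or Bcat_KO S4 (0.193). Cma1 was at 0.328 and 0.499 CPM in HOXA9_KO against 1.59 and 10.7 in Bcat_KO, a fitted log2 difference of -3.87 ± 0.86, and the libraries did not overlap.

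**Figure D2:**
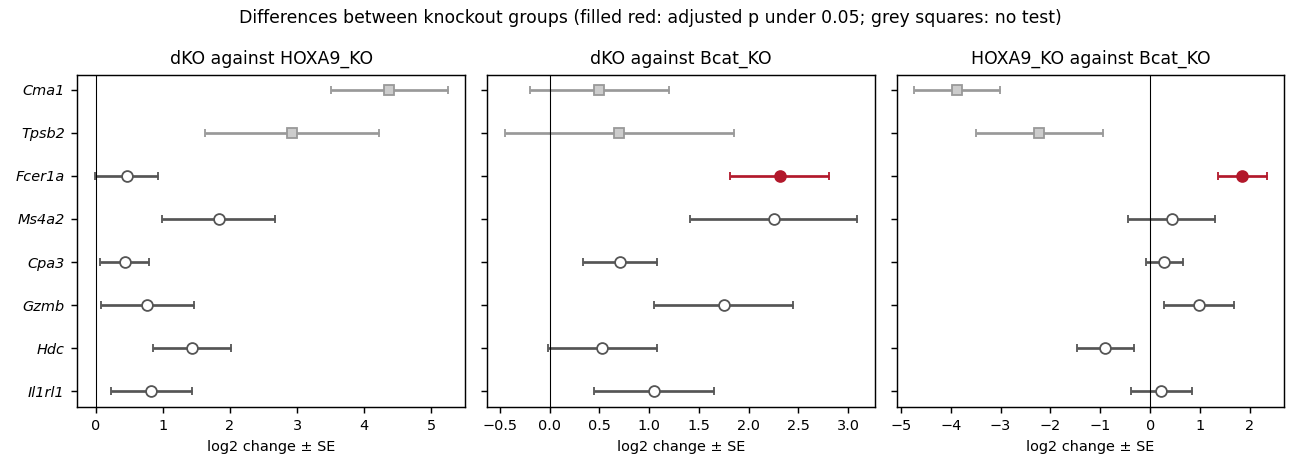
Log2 differences of the 8 genes between knockout groups with their standard errors (n = 2 libraries a group, horizontal axes differ); filled red points passed an adjusted p of 0.05, open points did not, and grey squares were given no test. Fcer1a (2.31 and 1.85) is the gene called. It was picked for its rise in these groups, so nothing is read from its calls.

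The wild types differed as well. Fcer1a was lower in WT_PRMT1 than in WT (log2 -4.29 ± 0.92, adjusted p = 0.0136), 1 of 6 tested genes called lower against 3.87% of all genes. By counts its level was 0.0464 of that in WT (0.00545 to 0.178). The low WT_PRMT1 level is also the base of the rise for which Fcer1a was picked, so nothing is read from the call. The call was lost without WT S1 (adjusted p = 0.106), WT S2 (0.0649), WT_PRMT1 S11 (0.1), Bcat_KO S3 (0.0509) or Bcat_KO S4 (0.0514). Cpa3 was at 6.06 and 12 CPM against 18.4 and 17.2 (adjusted p = 0.198), and the summed 8 genes were at 13.6 and 20.6 CPM against 36.2 and 26.1. The fitted difference of WT_PRMT1 from WT was below 0 for 6 of the 8 genes, and for these, folds of PRMT1_KO over WT_PRMT1 start from a lower base than folds over WT. It was above 0 for Tpsb2 and Il1rl1.

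Cma1 and Gzmb are the ends of one protease locus of 321 kb on chromosome 14, with 13 other protein-coding genes between them, and the locus did not move as a block. Of the 15 genes, 7 exceeded 1 CPM in any library. Ctsg, a granule protease of neutrophil precursors and mast cells, was at 677 and 667 CPM in PRMT1_KO against 80.2 and 76.9 in WT_PRMT1 (log2 3.10 ± 0.54, adjusted p = 0.00551), and it was lower in HOXA9_KO than in Bcat_KO (log2 -2.39 ± 0.53, adjusted p = 0.0291). Mcpt8, the basophil protease, was at 91.5 and 107 CPM in PRMT1_KO against 17.2 and 19.3, which did not pass (log2 2.44 ± 0.89, adjusted p = 0.0865). Mcpt4, a connective-tissue mast cell chymase, was highest in Bcat_KO S4 at 9.0 CPM, with 1.08 in Bcat_KO S3, 4.65 and 1.21 in dKO, and 0.245 and 4.28 in PRMT1_KO. It was at 0 in both WT libraries and was called in no comparison. Mcpt2, a mucosal mast cell protease, had 1.75 CPM in dKO S7 and at most 0.135 elsewhere. Gzmc went the other way from its neighbour Gzmb, at 0 in both PRMT1_KO libraries against 1.92 and 0.989 CPM in WT_PRMT1 (adjusted p = 0.0101).

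**Figure D3:**
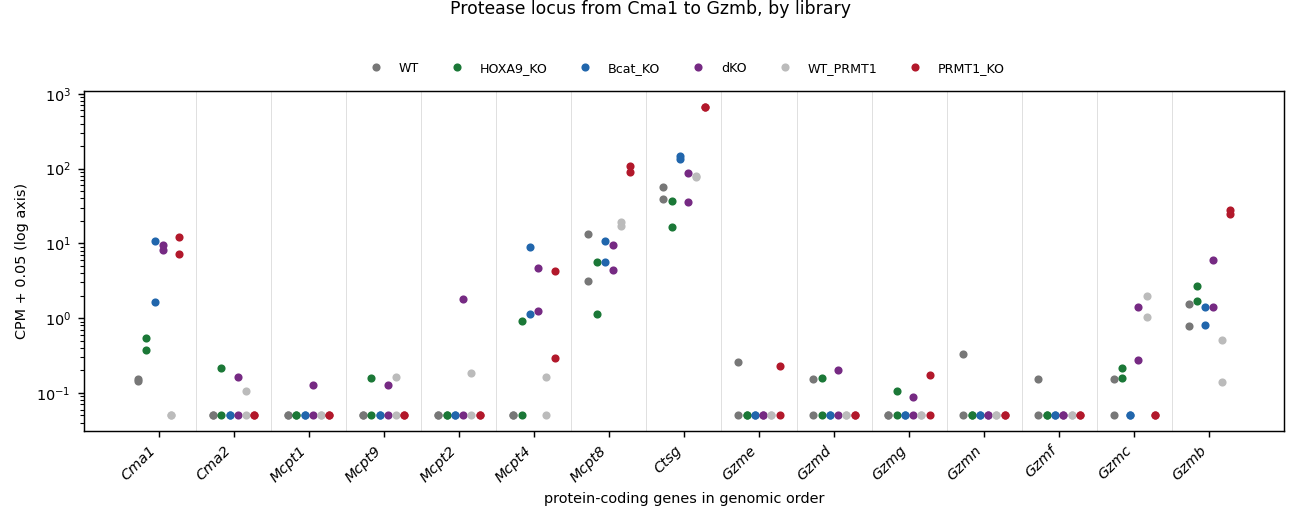
CPM + 0.05 on a log axis for the 15 protein-coding genes from Cma1 to Gzmb in genomic order; each dot is a library, coloured by group. Ctsg, Mcpt8 and Gzmb are highest in PRMT1_KO, Cma1 is high in Bcat_KO S4, dKO and PRMT1_KO, and 8 of the 15 genes stay at or under 1 CPM.

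Outside the locus, the basophil protease Prss34 was at 183 and 154 CPM in PRMT1_KO against 28.0 and 42.6 in WT_PRMT1 (log2 2.25 ± 1.19, adjusted p = 0.214), and in WT, HOXA9_KO, Bcat_KO and dKO it ran from 0.218 to 14 CPM. Tpsab1, the tryptase neighbour of Tpsb2, stayed at or under 0.31 CPM and was not tested. The closest transcript to Tpsb2 was Tpsab1, at 76.1% identity over 830 bases, to Cma1 it was Mcpt4 (68.2% over 682 bases), and to Gzmb it was Gzmc (77.3% over 844 bases). Of the 8 genes, 1 (Cpa3) overlapped another annotated gene, a microRNA.

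A wider list of 73 other mast cell and basophil genes, 65 of them tested, was chosen with earlier results of these data known. In PRMT1_KO 35 were called higher and 5 lower, against 16.6% and 16.0% of all genes, and their median log2 difference was 0.72. Scaling by library size alone shifts the median of all genes in that comparison from -0.03 to -0.17, and the calls over all genes go from 2826 higher and 2728 lower to 2052 and 3592; 29 of the list are then higher and 5 lower. In dKO 19 were higher and 9 lower than in WT (9.15% and 8.52% of all genes; median 0.24). HOXA9_KO had 11 higher and 4 lower (4.44% and 2.30%; median 0.16) and Bcat_KO 10 and 9 (7.48% and 9.76%; median 0.05). The list was called higher for 3 and lower for 1 in dKO against HOXA9_KO (0.416% and 1.33%), but for 0 and 3 with scaling by library size. It had 18 and 11 in dKO against Bcat_KO (16.2% and 12%), 9 and 6 in HOXA9_KO against Bcat_KO (10.8% and 6.52%), and 7 and 13 in WT_PRMT1 against WT (3.71% and 3.87%).

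Of 18 transcription factor genes tested, 4 were called higher and 1 lower with Hoxa9 lost, 5 and 1 with beta-catenin lost, 7 and 2 for dKO, and 10 and 1 for PRMT1_KO, beside the shares of all genes given above. For Gata2, WT had 216 and 244 CPM, HOXA9_KO 385 and 415, Bcat_KO 286 and 284, and dKO 441 and 554. It was called in each, by log2 0.80 ± 0.10, 0.31 ± 0.10 and 1.11 ± 0.10 (edgeR quasi-likelihood test, adjusted p = 6.29e-05, 0.0403 and 8.1e-07). In PRMT1_KO it was at 220 and 224 CPM against 86.8 and 95.2 in WT_PRMT1 (log2 1.29 ± 0.10, adjusted p = 4.28e-08). WT_PRMT1 lay below WT by a like amount (log2 -1.34 ± 0.10, adjusted p = 2.57e-07), so Gata2 in PRMT1_KO was at the level of WT. Zfpm1, a GATA cofactor, rose by 0.88 ± 0.08 in HOXA9_KO and 1.04 ± 0.08 in dKO over WT, and by 0.77 ± 0.08 in PRMT1_KO over WT_PRMT1 (adjusted p = 2.29e-06, 1.57e-07 and 1.14e-06). It differed by 0.13 ± 0.08 in Bcat_KO (adjusted p = 0.283). In PRMT1_KO it was at 159 and 163 CPM, where WT had 166 and 179. WT_PRMT1 had 99.6 and 89.4 and was called lower than WT for Zfpm1. Mitf, a mast cell regulator, was at 2.94 to 6.77 CPM in all 12 libraries and was called in no comparison. Cebpa, a myeloid factor, was at 20.3 and 27.5 CPM in HOXA9_KO and 32.4 and 24.5 in dKO against 76.6 and 66.9 in WT (log2 -1.58 ± 0.15 and -1.33 ± 0.15, adjusted p = 4.63e-06 and 1.03e-05), while Bcat_KO had 73.0 and 77.3.

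Gata2 and Zfpm1 also act in megakaryocytes, and markers of that lineage moved in the same libraries. In CPM their sum was 338 and 292 for WT libraries, 890 and 932 where Hoxa9 was lost (5 of 10 called higher), 415 and 426 where beta-catenin was lost (3 of 10), and 1535 and 1369 for dKO (8 of 10). The shares of all genes called higher were 4.44%, 7.48% and 9.15% in these groups. Vwf was higher by log2 2.64 ± 0.37 in HOXA9_KO (adjusted p = 0.00989) and 3.66 ± 0.39 in dKO (adjusted p = 0.00121). Their part in the Gata2 and Zfpm1 values was not tested.

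Of 10 mediator genes, 6 were called higher and 1 lower in PRMT1_KO, 5 higher in dKO, 3 higher in HOXA9_KO, and 1 higher and 1 lower in Bcat_KO, beside the shares of all genes given above. Slc18a2, which loads histamine into granules, had 50.6 and 49.7 CPM in WT libraries, 115 and 90.7 with Hoxa9 lost, 71.8 and 64.2 with beta-catenin lost, and 135 and 198 with both lost. The log2 difference from WT was 1.04 ± 0.16 in HOXA9_KO (adjusted p = 0.00156) and 1.73 ± 0.16 in dKO (adjusted p = 1.27e-05). That of PRMT1_KO from WT_PRMT1 was 1.78 ± 0.17 (adjusted p = 3.83e-06). Slc18a2 was thus called higher in HOXA9_KO, in which Hdc was not above WT. Ptgs1, a prostaglandin synthase, rose by 1.05 ± 0.12 in HOXA9_KO, 1.27 ± 0.12 in dKO and 1.29 ± 0.13 in PRMT1_KO (adjusted p = 3.93e-05, 2.11e-06 and 6.62e-07). Both Slc18a2 and Ptgs1 were called lower in WT_PRMT1 than in WT. Slc18a2 was at 62.6 and 64.3 CPM in PRMT1_KO and 19.2 and 17.8 in WT_PRMT1. Ptgs1 was at 42.9 and 43.4 CPM in PRMT1_KO and 17.2 and 18.2 in WT_PRMT1, where WT had 34.0 and 34.9. In dKO against HOXA9_KO the 3 listed genes called higher were Ptgs2 (0.71 ± 0.15, adjusted p = 0.0228), Lcp2 (0.35 ± 0.08, adjusted p = 0.039) and Slc18a2 (0.69 ± 0.16, adjusted p = 0.0488).

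Of 20 surface and cytokine genes tested, 10 were called higher and none lower in PRMT1_KO, while dKO had 5 and 3, HOXA9_KO 3 and 3, and Bcat_KO 2 and 4, beside the shares of all genes given above. Kit, the stem cell factor receptor that mast cells keep and that also defines LSK cells, rose in all 4 knockouts, by 0.59 ± 0.10, 0.66 ± 0.10, 0.52 ± 0.10 and 1.17 ± 0.10 in HOXA9_KO, Bcat_KO, dKO and PRMT1_KO (adjusted p = 0.00154, 0.000427, 0.00182 and 2.61e-07). It was lower in WT_PRMT1 than in WT (log2 -0.93 ± 0.10, adjusted p = 2.31e-05). Ptger3, a prostaglandin E receptor, rose by 1.05 ± 0.14 in HOXA9_KO, 1.35 ± 0.14 in dKO and 1.27 ± 0.14 in PRMT1_KO (adjusted p = 0.000115, 3.38e-06 and 2.02e-06). The chemokine genes Ccl3 and Ccl4 differed in the other direction in HOXA9_KO, Bcat_KO and dKO. For Ccl4, WT had 187 and 177 CPM, HOXA9_KO 76.7 and 52.8, Bcat_KO 37.6 and 41.6, dKO 18.4 and 11.5, WT_PRMT1 103 and 96.1, and PRMT1_KO 407 and 400. Its log2 difference was -1.49 ± 0.23 with Hoxa9 lost, -2.20 ± 0.23 with beta-catenin lost and -3.61 ± 0.25 for dKO (adjusted p = 0.00777, 0.000877 and 5.28e-05), and 2.02 ± 0.23 in PRMT1_KO (adjusted p = 0.00032). Ccl3 gave log2 -2.01 ± 0.22, -0.86 ± 0.21 and -3.12 ± 0.23 in HOXA9_KO, Bcat_KO and dKO (adjusted p = 0.000946, 0.0267 and 3.4e-05), and 1.28 ± 0.21 in PRMT1_KO (adjusted p = 0.00156). Cd69, an activation marker, was lower in HOXA9_KO, Bcat_KO and dKO (log2 -1.80 ± 0.23, -1.28 ± 0.23 and -2.29 ± 0.24; adjusted p = 0.00461, 0.011 and 0.000611).

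Of the 12 IgE-receptor signalling genes, 7 were higher and 3 lower in PRMT1_KO (16.6% and 16.0% of all genes), led by the adaptor Gab2 (log2 1.37 ± 0.11, adjusted p = 5.62e-08). In dKO 2 were higher (9.15% of all genes), among them Lcp2, which encodes the adaptor SLP-76 (0.99 ± 0.08, adjusted p = 5.29e-07). There 4 were lower (8.52% of all genes), among them Inpp5d, an inhibitory phosphatase (log2 -0.49 ± 0.09, adjusted p = 0.00128). Srgn, the granule proteoglycan that binds these proteases, was at 1348 and 1262 CPM in PRMT1_KO against 630 and 599 in WT_PRMT1 (log2 1.09 ± 0.07, adjusted p = 1.06e-08), and it did not pass the test in HOXA9_KO, Bcat_KO or dKO against WT. WT had 1082 and 976 CPM, and Srgn was called lower in WT_PRMT1 than in WT.

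**Figure D4:**
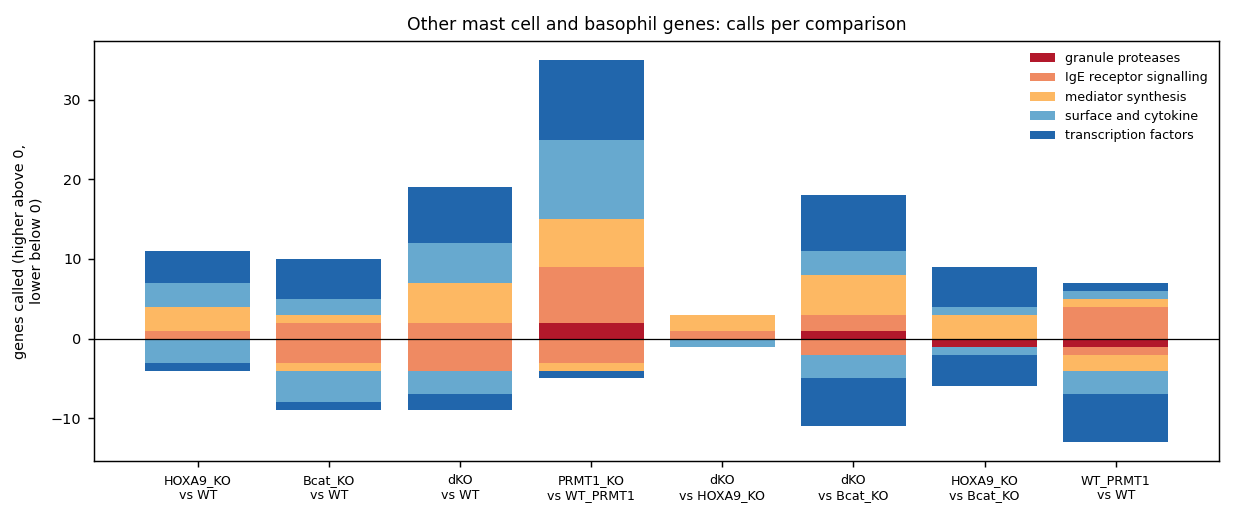
Number of the other listed mast cell and basophil genes called (adjusted p under 0.05), higher above the axis and lower below it, for 8 comparisons, stacked by role. PRMT1_KO has the tallest column, 35 higher and 5 lower, and dKO against HOXA9_KO the shortest, 3 and 1.

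Over the 12 libraries the 8 genes did not vary as one. Pearson's r on log2 CPM ran from 0.39 for Fcer1a with Il1rl1 to 0.91 for Ms4a2 with Hdc and for Hdc with Il1rl1, and Cma1 with Tpsb2 had 0.90. All pairs share libraries and the high PRMT1_KO group, so these are descriptions. The genes most like the standardised mean of the 8, by Pearson's r over the same 12 libraries, were Slc41a3 (0.975), Man1a (0.957), Mapkapk3 (0.957), Cltc (0.956), Hibch (0.955), Wipi1 (0.952), Derl1 (0.951) and Adipor1 (0.95). None was on the mast cell and basophil lists. Slc41a3 had mean levels of 8.51 CPM in WT, 8.42 in HOXA9_KO, 9.42 in Bcat_KO, 12.8 in dKO, 5.53 in WT_PRMT1 and 19.6 in PRMT1_KO; the summed 8 genes were likewise lowest in WT_PRMT1 and highest in PRMT1_KO.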

How the data were processed

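The deposited file is a table of gene counts. Per the submitters' processing notes, the authors trimmed reads with Trim Galore 0.6.6, aligned them with STAR 2.7.6a to GRCm38/mm10 and made the raw counts with featureCounts. Per the labels' protocols, total RNA was extracted with a micro column kit and libraries were made with a directional kit. No source used here states the annotation release, or whether strand and read pairs entered the counting. Among nonzero counts 67.1 to 75.9% were even, as when both mates of a pair are counted, so counting intervals are too narrow. The floor of 3 counts may be too low for the same reason. Columns named control were read as WT and WT_PRMT1, and 0 columns were left unused. Gene symbols came from GENCODE M21 (55230 of 55471 IDs matched).

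Counts were fitted with edgeR 4.0.16 in R 4.3.3 (TMM, filterByExpr with a minimum count of 10, 1 mean per group over all 12 libraries, 6 residual degrees of freedom, glmQLFit and glmQLFTest). Robust estimation of the spread was adopted after the counts had been seen, to follow an earlier analysis of this table; the fit without it is an added alternative. A call is a Benjamini-Hochberg adjusted p under 0.05 over 17063 genes. CPM are TMM-scaled with no pseudocount. The script was tested on simulated data. Transcripts were compared with blastn 2.17.0, and promoter sequences are RefSeq's (GRCm38.p6).

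The 8 genes, the other gene lists and the tests were chosen with earlier results of these data known. Genes named besides the 8 were, per list, up to 3 of the smallest p among those called in a comparison, and always Gata2, Mitf, Mcpt4, Mcpt8, Prss34, Tpsab1, Fcer1g and Kit; of the locus, genes called or above 1 CPM; and the 8 genes most like the mean of the set. The genes named from the marker lists (Prtn3, Mpo, Il5, Nkg7, Ncr1, Cd8a, Cd3g, Rora, Gata3, Areg, Il17rb, Prg2, Siglecf, Cd34, Flt3, Slamf1 and Vwf) fall outside that rule and were named after their values were seen. Alternatives were DESeq2 1.42.0, DESeq2's size factors in edgeR, library-size scaling, no filter, only the experiment's groups fitted, halved counts, and leaving out each library.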

Additional observations from a re-analysis of the deposited data

How the results depend on the processing

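Of 112 counts of calls under the 7 alternatives other than leaving out a library, 105 stayed within 1.5 times. In dKO against HOXA9_KO, 298 genes were called, but 623 without the filter, 157 with only the experiment fitted and 633 with DESeq2; the other mast cell and basophil genes called there, 4, became 14 without the filter and 11 with DESeq2. In WT_PRMT1 against WT, 1294 genes and 20 listed genes became 2294 and 32 with only those groups fitted. Leaving out 1 library at a time gave ranges of 521 to 1438 genes for HOXA9_KO against WT, 1312 to 3137 (8 to 22 listed) for Bcat_KO against WT, 1698 to 3117 for dKO against WT, 168 to 607 (2 to 11 listed) for dKO against HOXA9_KO, 1844 to 3168 for HOXA9_KO against Bcat_KO and 638 to 1613 for WT_PRMT1 against WT. The same fits gave log2 ranges across 0, none of them called at the reversed end, in dKO against HOXA9_KO for Fcer1a (-0.28 to 1.20), Ms4a2 (-0.21 to 2.64), Cpa3 (-0.11 to 0.82), Gzmb (-0.64 to 1.46) and Il1rl1 (-0.29 to 1.46); in dKO against Bcat_KO for Cma1 (-0.26 to 2.49), Hdc (-0.24 to 1.06) and Il1rl1 (-0.08 to 1.67); in HOXA9_KO against Bcat_KO for Il1rl1 (-0.28 to 0.59); and in WT_PRMT1 against WT for Hdc (-0.98 to 0.12) and Il1rl1 (0 to 1.89). The 3 calls of Fcer1a were lost in 1, 3 and 5 of those 12 fits. Without robust estimation of the spread, an alternative added after seeing the data, the 3 calls of Fcer1a stood and Ms4a2 was also called in dKO against Bcat_KO. The cause was not tested. A group with 1 library left is assumed to vary like the others. No paired analysis was possible because the table's columns carry no replicate numbers. With 2 libraries a group and wild-type counts near 0, a fold for Cma1 or Tpsb2 is known only against a floor or as a wide interval.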
